A study of Rattus norvegicus with 8 samples.

Results

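Nuclear genes of the last steps of mitochondrial respiration were followed in the rat sciatic nerve after chronic constriction injury (CCI), in which loose ligatures around the nerve serve as a model of neuropathic pain. The genes were taken by name alone: those whose names begin with Uqc (complex III and its assembly factors), Cox4 to Cox8 (complex IV) or Atp5 (ATP synthase), with Cyc1 and Cycs, which gave 48 of the 22601 gene names in the deposited count table. By name, 13 of the 48 were placed with complex III and cytochrome c, 18 with complex IV and 17 with ATP synthase. PolyA RNA of whole sciatic nerve was sequenced 15 days after the CCI operation (4 libraries) or after a sham operation (4 libraries). The series is titled for an FGF4 and HIF-1α axis and its effects on glycolysis of neurons in this kind of pain. Strain, sex and age are not stated, nor whether the 4 libraries of a group stand for 4 rats, so a p-value here measures library-to-library spread, which may in part be technical.

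Complex III passes electrons from ubiquinol to cytochrome c, a small mobile protein. Complex IV passes them on to oxygen, and ATP synthase uses the proton gradient that both help to build. Each complex is made of many small subunits, and several complex IV subunits exist as a widely expressed isoform and an isoform of heart and skeletal muscle. A few subunits of each complex are encoded in mitochondrial DNA and were not analysed here. In peripheral nerve, Schwann cells and axons both hold mitochondria, and axons move them along their length. RNA of whole nerve comes mostly from Schwann, connective tissue, vessel and immune cells, since the cell bodies of the neurons lie outside the nerve.

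Total counts ranged from 42541217 to 54559292 per library in CCI and from 42654145 to 48573026 in sham. The labelled tissue held its defining markers: 12 genes of the myelinating Schwann cell summed to between 7179 and 11008 CPM in CCI libraries and between 96161 and 113049 CPM in sham libraries, where CPM are counts relative to each library's scaled total. All 12 fell, while 11 of 12 macrophage genes rose (summed level 5253 to 6134 CPM in CCI, 992 to 1542 CPM in sham libraries). Of 8 endothelial genes, 7 rose and 1 fell (1272 to 1444 CPM in CCI, 800.5 to 860.0 CPM in sham libraries). All 4 perineurial genes tested fell (611 to 889 CPM in CCI, 4015 to 5563 CPM in sham libraries). Of 8 genes tested for each of neutrophils and lymphocytes, 6 rose. The part of these changes in cell content in the results that follow was not tested, and in whole nerve, fewer cells of a type and less RNA per cell cannot be told apart. Skeletal muscle RNA differed by library: 27 muscle genes summed to 45.02, 7936, 1566 and 1067 CPM in CCI 1 to 4, against 119, 1440, 137 and 102 CPM in sham 1 to 4, with no muscle gene at 0 in any library. CCI 2 and sham 2 were the richest of their groups.

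Transcripts of these complexes were mostly more abundant after injury. Of 45 members with enough counts to test, 34 rose in CCI (75.6%), against 36.2% of all 15763 genes tested, and 2 fell (4.44%), against 32.2% of all genes tested (edgeR's quasi-likelihood test, Benjamini-Hochberg adjusted p under 0.05 over all genes). In 32 members every CCI library lay above every sham library, which was so for 34.2% of all genes tested, and in 2 every CCI library lay below (30.6% of all genes tested). The median log2 fold change was 0.74 over the 45 members and 0.05 over all genes tested. The rises were mostly moderate: 9 members rose at least 2-fold, or 20% of those tested, near the 16.4% of all genes tested that did so. As a share of all counts, with no TMM scaling, the 48 members took 0.350%, 0.340%, 0.305% and 0.323% in CCI 1 to 4, against 0.192%, 0.188%, 0.172% and 0.204% in sham 1 to 4.

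The number of members called changed most with library totals in place of TMM. DESeq2's size factors gave 33 higher (34.7% of all genes) and 2 lower (33.7% of all genes). Upper quartile scaling gave 35 higher (36.8% of all genes) and 2 lower (31.7% of all genes). Without CCI 2 and sham 2, 32 members rose and 1, Uqcc1, fell of 44 tested, against 32.6% higher and 29.4% lower among all genes. Scaling by library totals alone shifted the median of all genes to 0.27 and that of the members to 0.97, and 66.9% of all genes called were then higher in CCI, in place of 52.9%. Under that scaling 40 members were higher (47.2% of all genes) and 0 lower (23.4% of all genes) by edgeR, with 0 lower also at an unadjusted p under 0.05, whereas DESeq2's test, which uses its own size factors, gave 2 lower and 3 lower at an unadjusted p under 0.05. The 6 members then added to those higher were Uqcr11, Uqcrc2, Uqcc3, Cox6c, Cox7a2l and Atp5sl. The deposited FPKM, which divide each count by gene length and by the library total, gave 40 higher (47.3%) and 1 lower (23.5%) with limma on log2(FPKM + 1). Keeping genes that reached 5 CPM in 4 or more libraries left 31 higher (37.1%) and 1 lower (37.6%) of 40 tested.

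**Figure D1:**
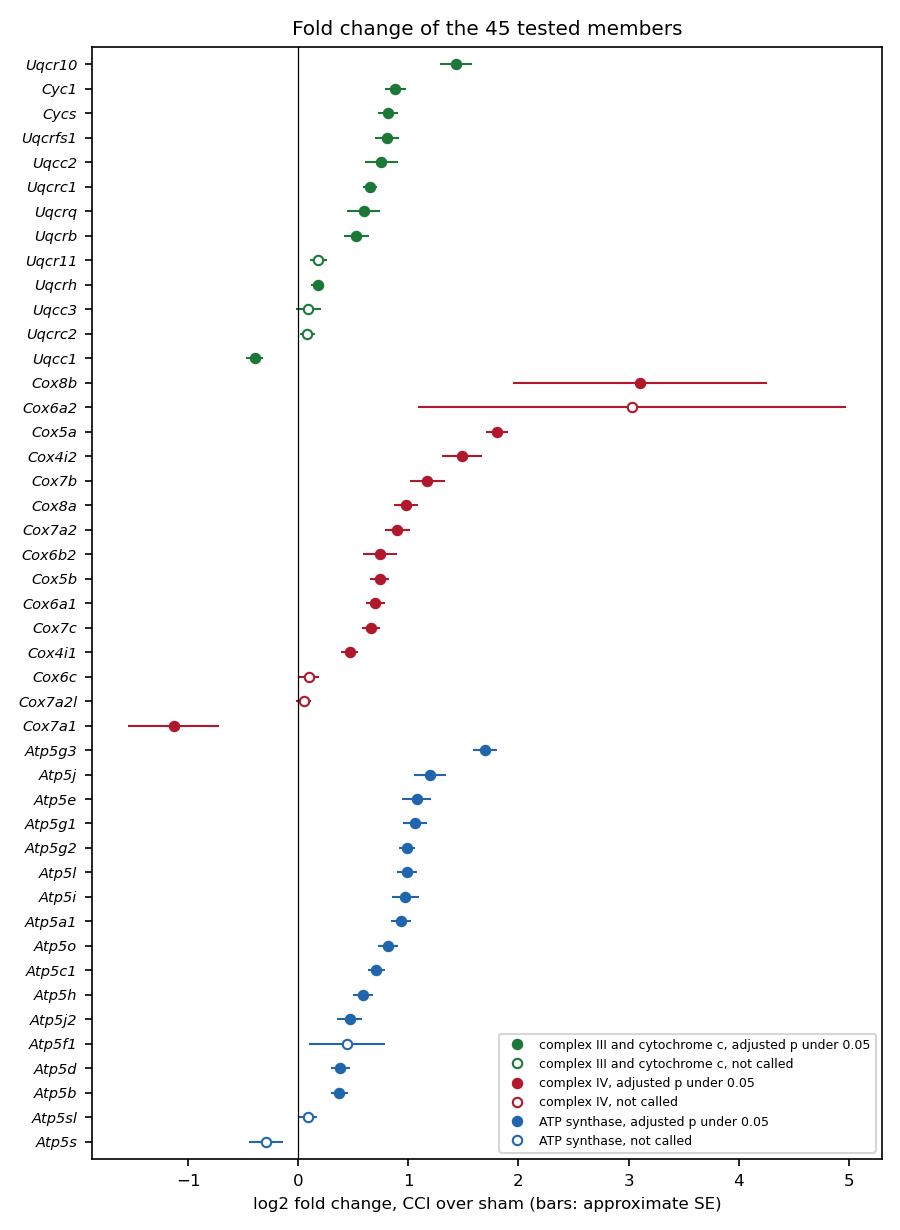
Log2 fold change of each tested member (x axis, CCI over sham; bars are approximate standard errors), grouped by complex III with cytochrome c, complex IV and ATP synthase, with filled points for an adjusted p under 0.05. Of 45 members, 34 filled points lie to the right of 0 and 2 to the left, Uqcc1 and Cox7a1, while Cox8b and Cox6a2 have by far the widest bars.

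In complex III, 7 of 9 subunit genes rose (77.8%, against 36.2% of all genes tested), as did cytochrome c. The 2 subunit genes that did not pass were Uqcr11 and Uqcrc2. Uqcr10, a small subunit, had 17.3, 16.3, 11.7 and 14.1 CPM in CCI 1 to 4, against 6.14, 5.06, 4.76 and 6.04 CPM in sham 1 to 4. The groups did not overlap, and the log2 fold change was 1.43 (SE 0.15; edgeR adjusted p = 8.45e-06). Cyc1, the haem-carrying cytochrome c1, had 38.1, 36.4, 30.9 and 33.7 CPM in CCI and 20.8, 17.4, 17.1 and 20.2 CPM in sham (log2 fold change 0.88, SE 0.09; edgeR adjusted p = 1.09e-05). Uqcrfs1, the Rieske iron-sulfur protein that takes the electron from ubiquinol, had 93.6, 81.0, 73.2 and 82.3 CPM in CCI and 49.6, 50.6, 37.6 and 50.7 CPM in sham (0.81, SE 0.11; edgeR adjusted p = 6.09e-05). Both genes were separate between groups, with sham 3 the lowest library for each. Cycs, somatic cytochrome c, had 39.9, 35.8, 34.9 and 32.4 CPM in CCI and 20.7, 17.9, 22.1 and 20.7 CPM in sham, again with no overlap (0.81, SE 0.09; edgeR adjusted p = 1.39e-05).

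The core proteins of complex III, present in equal numbers in the complex, moved unequally. Uqcrc1 rose 1.57-fold (edgeR adjusted p = 4.78e-06), whereas Uqcrc2 averaged 97.0 ± 7.27 CPM in CCI and 91.5 ± 3.61 CPM in sham (SD, n = 4 each; edgeR adjusted p = 0.280). The ratio of Uqcrc1 to Uqcrc2, in the deposited FPKM, was 0.996, 0.964, 1.03 and 1.02 in CCI 1 to 4, against 0.632, 0.736, 0.666 and 0.677 in sham 1 to 4. Every CCI ratio was above every sham ratio. This pair was chosen after its values were seen, and the ratio was not tested. Among the other subunits Uqcrq rose 1.51-fold, Uqcrb 1.44-fold and Uqcrh, the hinge protein at the cytochrome c docking site, 1.13-fold. Uqcrh overlapped between groups (85.4 to 96.2 CPM in CCI, 77.8 to 85.5 CPM in sham libraries). Its call was lost with DESeq2's size factors (edgeR adjusted p = 0.0558), with DESeq2's own test (adjusted p = 0.0529), in edgeR without a filter (0.0588), with at least 5 CPM in 4 libraries (0.0839), without CCI 1, 2 or 4 or sham 2 or 3 (0.0602 to 0.112) and without CCI 2 and sham 2 (0.121). Uqcr11 averaged 35.6 ± 1.26 CPM in CCI and 31.3 ± 2.99 CPM in sham (SD, n = 4 each; edgeR adjusted p = 0.0583). It passed with upper quartile scaling (edgeR adjusted p = 0.0489), library totals (0.000777) and without sham 4 (0.0218), and in limma-voom (0.0476) and limma on log2(FPKM + 1) (0.000500).

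The assembly factors of complex III went both ways. Uqcc2, needed with Uqcc1 for making the mitochondrially encoded cytochrome b, rose 1.69-fold (log2 fold change 0.76, SE 0.15; edgeR adjusted p = 0.000952). Uqcc1 itself had 22.9, 19.8, 21.5 and 20.6 CPM in CCI, against 26.5, 26.98, 27.5 and 30.6 CPM in sham. It fell with no overlap (log2 fold change -0.39, SE 0.08; edgeR adjusted p = 0.000978), but not with library totals alone (log2 fold change -0.17; edgeR adjusted p = 0.0747) or with limma on log2(FPKM + 1) (-0.15; adjusted p = 0.0701). Uqcc3, a further assembly factor, averaged 9.87 ± 0.494 CPM in CCI and 9.25 ± 1.15 CPM in sham and did not pass (edgeR adjusted p = 0.493).

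In complex IV, 11 of 15 tested subunit genes rose and 1 fell (73.3% and 6.67%, against 36.2% and 32.2% of all genes tested). The rise of Cox5a, a subunit on the matrix side of the enzyme, was the largest apart from that of the muscle isoform Cox8b: it had 44.0, 43.0, 36.1 and 35.9 CPM in CCI 1 to 4, against 11.7, 10.9, 10.5 and 12.5 CPM in sham 1 to 4. The groups were far apart, and the fitted fold was 3.49 (log2 fold change 1.80, SE 0.10; edgeR adjusted p = 6.69e-08). Cox7b had 34.1, 28.3, 22.3 and 28.3 CPM in CCI and 15.8, 11.5, 9.90 and 13.0 CPM in sham (1.17, SE 0.16; edgeR adjusted p = 8.73e-05). Cox8a, the widely expressed isoform of subunit 8, had 88.7, 76.6, 68.5 and 74.96 CPM in CCI and 42.4, 35.9, 33.6 and 45.2 CPM in sham (0.98, SE 0.11; edgeR adjusted p = 1.61e-05). Neither gene overlapped between groups. Cox7a2, Cox5b, Cox6a1, Cox7c and Cox4i1 rose by 1.38-fold (Cox4i1) to 1.87-fold (Cox7a2), and Cox6b2, known as a testis isoform, rose 1.67-fold at 4.46 ± 0.216 CPM in CCI and 2.66 ± 0.280 CPM in sham (SD, n = 4 each).

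Abundant complex IV genes that did not pass stood beside those that rose. Cox6c averaged 88.7 ± 9.40 CPM in CCI and 82.9 ± 8.07 CPM in sham (edgeR adjusted p = 0.360). Cox7a2l, which joins complexes III and IV into supercomplexes, averaged 158 ± 7.39 CPM in CCI and 153 ± 9.55 CPM in sham (edgeR adjusted p = 0.523). With library totals alone both passed, with log2 fold changes of 0.32 for Cox6c and 0.27 for Cox7a2l, beside a median of 0.27 over all genes under that scaling. In FPKM, the ratio of Cox5a to Cox6c was 0.332, 0.350, 0.351 and 0.314 in CCI 1 to 4, against 0.107, 0.105, 0.102 and 0.0989 in sham 1 to 4. These ratios were far apart between groups; the pair was chosen after its values were seen and was not tested.

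Of the 17 genes placed by name with ATP synthase, 14 rose (82.4%, against 36.2% of all genes tested). Among them were all 5 of the catalytic F1 part and 9 of 10 of the membrane Fo part and its stalks. Atp5g3, 1 of the genes for the proton-carrying subunit c, had 64.5, 59.4, 51.7 and 58.8 CPM in CCI 1 to 4, against 19.99, 18.1, 14.5 and 19.8 CPM in sham 1 to 4. It rose 3.24-fold with no overlap (log2 fold change 1.70, SE 0.11; edgeR adjusted p = 2.78e-07). Atp5j, coupling factor 6 of the peripheral stalk, had 31.9, 30.1, 25.1 and 28.0 CPM in CCI and 13.5, 14.6, 9.04 and 13.1 CPM in sham (1.197, SE 0.14; edgeR adjusted p = 2.50e-05). Atp5e, the epsilon subunit of F1, had 109, 101, 78.5 and 91.5 CPM in CCI and 52.5, 44.4, 35.6 and 47.5 CPM in sham (1.08, SE 0.13; edgeR adjusted p = 4.18e-05). In both, CCI 3 was the lowest CCI library and sham 3 the lowest sham library, and the groups were separate.

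The catalytic F1 genes rose by unequal amounts. Atp5a1 (alpha) rose 1.91-fold, Atp5c1 (gamma) 1.64-fold, and Atp5d (delta) and Atp5b (beta) 1.30-fold each. Alpha and beta alternate in the F1 ring in equal number. Per length, the ratio of Atp5a1 to Atp5b in FPKM was 0.594, 0.586, 0.575 and 0.567 in CCI and 0.420, 0.407, 0.367 and 0.381 in sham, with no overlap (chosen after the values were seen, not tested). Among the stalk and membrane genes Atp5l and Atp5i rose 1.98-fold and 1.96-fold, Atp5o, the stalk subunit that holds F1, 1.76-fold, Atp5h 1.51-fold and Atp5j2 1.38-fold. Of the accessory genes, Atp5s averaged 4.52 ± 0.694 CPM in CCI and 5.54 ± 0.463 CPM in sham (edgeR adjusted p = 0.112), and Atp5sl 31.5 ± 2.62 CPM in CCI and 29.6 ± 1.89 CPM in sham (edgeR adjusted p = 0.343). Current RefSeq symbols for this pair are Dmac2l and Dmac2, and both are counted with ATP synthase by their older names only.

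The genes Atp5g1, Atp5g2 and Atp5g3 encode the same mature subunit c with different import sequences, and their makeup shifted. Atp5g1 had 39.4, 38.1, 31.6 and 34.9 CPM in CCI and 18.7, 16.3, 14.5 and 19.5 CPM in sham (log2 fold change 1.06, SE 0.11; edgeR adjusted p = 7.66e-06), and Atp5g2 rose 1.99-fold. Of their summed FPKM, Atp5g3 made up 24.3%, 24.2%, 23.6% and 24.2% in CCI 1 to 4, against 17.0%, 16.2%, 15.2% and 17.0% in sham 1 to 4. Atp5g2, the most abundant, made up 61.9% ± 0.754 in CCI and 68.8% ± 1.52 in sham (SD, n = 4 each), and Atp5g1 14.0% ± 0.520 in CCI and 14.8% ± 0.848 in sham. The share of Atp5g3 was higher in every CCI library than in any sham library. These shares were computed after the fold changes had been seen, and were not tested.

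**Figure D2:**
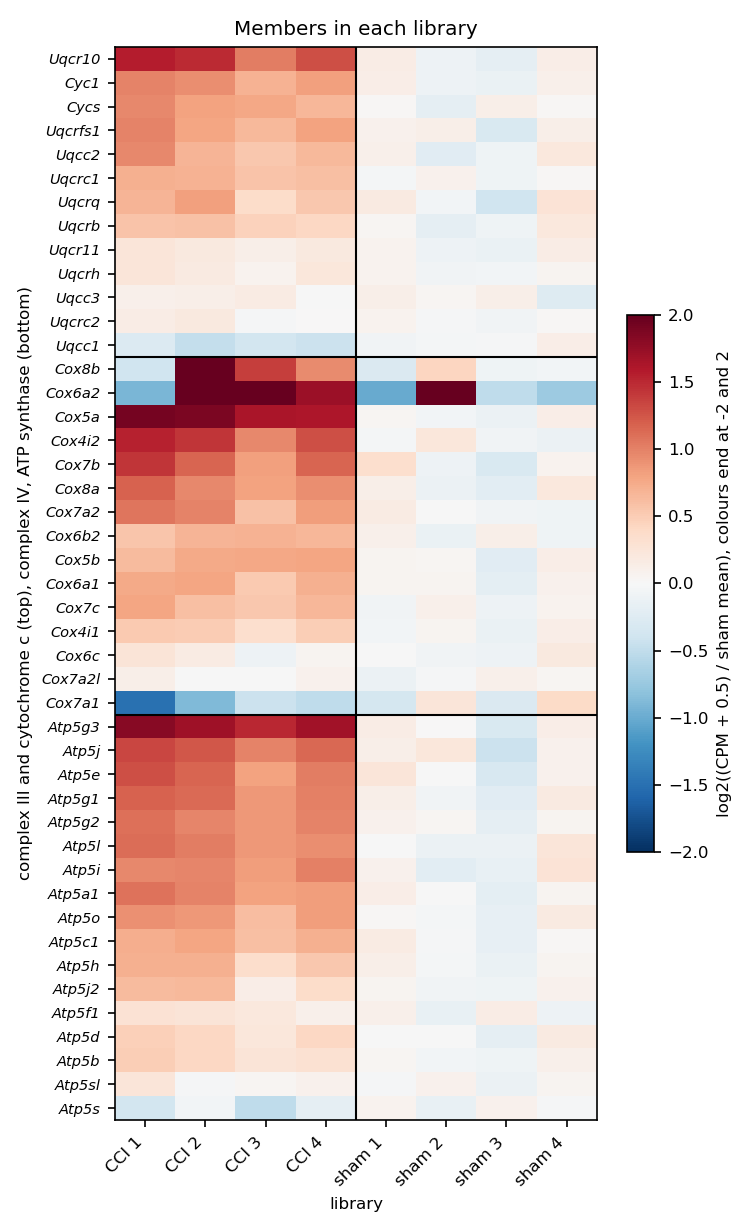
Each tested member (rows, grouped by complex) in each library (columns, CCI left and sham right), coloured by log2 of CPM plus 0.5 minus the sham mean of the same log values. The 4 CCI columns are red for most members of all 3 groups, whereas Cox6a2 and Cox8b are red in CCI 2, 3 and 4 and blue in CCI 1, and Cox6a2 is also dark red in sham 2.

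Levels differed widely between members. On the per-length FPKM scale the most abundant in CCI were Atp5b (mean 322 in CCI and 213 in sham), Cox4i1 (288 in CCI and 179 in sham) and Atp5e (275 in CCI and 112 in sham). Cox6c, at 213 FPKM in CCI and 170 in sham, was among the highest in sham, above Atp5e. FPKM carry no TMM scaling, and Cox6c did not pass on TMM-scaled counts. Atp5f1, whose current RefSeq symbol Atp5pb names subunit b of the stalk, lay at 0.481 FPKM in CCI and 0.303 in sham and did not pass (edgeR adjusted p = 0.278). The other 9 Fo and stalk genes ranged in sham from 15.2 FPKM (Atp5j) to 91.8 FPKM (Atp5g2). RefSeq names 3 pseudogenes of Atp5pb, and how the authors' counting treated reads that match several copies is not given in the sources used here. At least 1 named pseudogene exists for 25 of the 48 members (61 in all, with 8 for Atp5l and 7 for Cycs), and levels and folds of these genes are uncertain to that extent.

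Cox4i2, the alternative isoform of subunit 4, which in human cells is known as a gene induced by HIF-1 in low oxygen, had 7.46, 6.91, 4.84 and 6.23 CPM in CCI 1 to 4, against 2.18, 2.73, 2.11 and 2.03 CPM in sham 1 to 4. It rose 2.81-fold with no overlap (log2 fold change 1.49, SE 0.18; edgeR adjusted p = 3.34e-05). Its widely expressed partner Cox4i1 had 194, 192, 169 and 188 CPM in CCI and 129, 139, 122 and 147 CPM in sham (0.47, SE 0.07; edgeR adjusted p = 0.000217). Of the FPKM of both, Cox4i2 made up 2.02%, 1.90%, 1.51% and 1.74% in CCI and 0.897%, 1.04%, 0.920% and 0.736% in sham. The share was higher in 4 of 4 CCI libraries than in any sham library, by 0.896 percentage points (two-sided exact permutation p = 0.0286, the smallest that 4 against 4 allows, and 0.0571 adjusted over the 4 isoform shares tested), so it did not pass after adjustment. Cox4i2 was a small part of subunit 4 transcripts in both groups. The part of low oxygen or of cell content in its rise was not tested.

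The muscle isoforms were checked against the muscle RNA in each library. Cox6a2, the heart and skeletal muscle isoform of subunit 6a, had 0.0345, 30.4, 4.78 and 2.79 CPM in CCI 1 to 4, against 0, 4.31, 0.209 and 0.110 CPM in sham 1 to 4. The groups overlapped, with CCI 2 and sham 2 the highest of each, and the log2 fold change of 3.03 had an SE of 1.94 (edgeR adjusted p = 0.207). It was 1.08 without CCI 2 (edgeR adjusted p = 0.641) and 6.41 without sham 2 (0.0579). Sham 1 had no Cox6a2 count, which allows up to 0.0771 CPM by counting error alone. In the 4 libraries richest in muscle RNA, Cox6a2 had 3.83 (CCI 2), 3.05 (CCI 3), 2.62 (CCI 4) and 2.99 (sham 2) counts per 1000 counts of the 27 muscle genes. The other libraries, with at most 9 Cox6a2 counts each, had 0.767 (CCI 1), 0 (sham 1), 1.53 (sham 3) and 1.08 (sham 4). Acta1, skeletal muscle actin, had 1.88, 833, 150 and 85.2 CPM in CCI and 4.57, 251, 5.00 and 1.17 CPM in sham, with the same high libraries. Ckm, muscle creatine kinase, had 0.259, 297, 56.9 and 48.3 CPM in CCI and 1.39, 79.8, 1.91 and 1.01 CPM in sham. Mb, myoglobin, had 0.0173, 54.5, 17.8 and 7.05 CPM in CCI and 0.462, 1.74, 0.372 and 0.353 CPM in sham. Of 26 muscle genes tested, 2 rose and 1 fell, with a median log2 fold change of 2.28. The muscle sum differed in makeup between libraries. Acta1, Ckm and Mb had 1.17, 1.01 and 0.353 CPM of a sum of 102 CPM in sham 4. In CCI 2 they had 833, 297 and 54.5 CPM of a sum of 7936 CPM. Values per 1000 muscle counts, here and below, therefore have unlike denominators in libraries rich and poor in muscle RNA.

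Cox8b, the muscle isoform of subunit 8, was high in the same CCI libraries as Cox6a2, with 0.0345, 5.29, 1.34 and 0.860 CPM in CCI 1 to 4, against 0.0771, 0.447, 0.163 and 0.176 CPM in sham 1 to 4. Its groups overlapped, since CCI 1 was the lowest of all 8 libraries. Per 1000 muscle counts, Cox8b had 0.767, 0.667, 0.858 and 0.806 in CCI 1 to 4, against 0.646, 0.311, 1.19 and 1.73 in sham 1 to 4. It was called higher (log2 fold change 3.104, SE 1.16; edgeR adjusted p = 0.0395), but not without CCI 2 (1.73; edgeR adjusted p = 0.132), CCI 3 (3.19; 0.0643), sham 1 (2.83; 0.101), sham 3 (2.99; 0.0913) or sham 4 (3.01; 0.0970), nor with limma-voom (2.52; adjusted p = 0.230), limma on log2(FPKM + 1) (1.55; adjusted p = 0.0740) or without a filter (3.07; edgeR adjusted p = 0.0594). It did not pass the filter on low counts without CCI 2 and sham 2. The partners Cox6a1 and Cox8a did not share this pattern: Cox6a1 had 75.1, 76.5, 63.6 and 72.2 CPM in CCI and 45.7, 45.8, 38.3 and 46.9 CPM in sham (log2 fold change 0.70, SE 0.08; edgeR adjusted p = 2.74e-05). As shares of the FPKM of each pair, Cox6a2 took 10.2% ± 13.2 in CCI and 2.45% ± 4.36 in sham (SD, n = 4 each), and Cox8b 3.61% ± 4.22 in CCI and 0.882% ± 0.704 in sham. The spread within CCI was wider than the difference between groups for both (two-sided exact permutation p = 0.343 for Cox6a2 and 0.257 for Cox8b, both 0.343 adjusted over 4 shares).

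Cox7a1, also known as a heart and skeletal muscle isoform, went the other way. It had 0.328, 0.759, 1.24 and 1.13 CPM in CCI 1 to 4, against 1.34, 2.26, 1.42 and 2.54 CPM in sham 1 to 4. It fell, with every CCI library below every sham library (log2 fold change -1.13, SE 0.42; edgeR adjusted p = 0.0322). The call was lost with library totals alone (log2 fold change -0.90; edgeR adjusted p = 0.0800), without CCI 2 (-1.10; 0.0623), sham 2 (-1.03; 0.0750) or sham 4 (-0.96; 0.0891) and without CCI 2 and sham 2 (-0.98; 0.132). CCI 2, the library richest in muscle RNA, held 40 Cox7a1 counts beside 1601 of Cox6a2, or 0.0956 Cox7a1 counts per 1000 muscle counts. Sham 4, with the second-lowest muscle sum of all libraries, held 115, or 24.8 per 1000. The muscle sums of CCI 2 and sham 4 differ in makeup, as given above. Cox7a2, the partner of Cox7a1, had 35.3, 33.2, 25.1 and 29.7 CPM in CCI and 18.5, 16.3, 15.7 and 15.5 CPM in sham (log2 fold change 0.90, SE 0.11; edgeR adjusted p = 3.40e-05). Of the FPKM of both, Cox7a1 took 0.153%, 0.376%, 0.807% and 0.625% in CCI and 1.17%, 2.23%, 1.47% and 2.62% in sham, lower in 4 of 4 CCI libraries (two-sided exact permutation p = 0.0286, and 0.0571 adjusted over 4 shares). The gene length behind the Cox7a1 FPKM values was 2903 bp, against 479 bp for Cox7a2, 319 bp for Cox8b and 524 bp for Cox6a2. The size of the Cox7a1 share depends on these lengths. CCI minus sham was -1.39 percentage points in FPKM and -7.42 percentage points in counts.

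Cox7a1 is also known from brown fat, and fat markers were looked at beside it. White fat genes (7 tested, 2 higher and the others not past the threshold) summed to 529, 481, 402 and 620 CPM in CCI 1 to 4, against 456, 348, 306 and 819 CPM in sham 1 to 4, highest in sham 4. Of the brown fat list, Ucp1, the uncoupling protein that defines brown fat, had no count in any library, and Cidea averaged 1.54 CPM in CCI and 1.87 CPM in sham (edgeR adjusted p = 0.527). The list's 5 genes summed to between 39.8 and 57.7 CPM in CCI libraries and between 11.7 and 15.96 CPM in sham libraries. Of 3 tested, 1 rose: Dio2, a deiodinase that activates thyroid hormone, averaged 38.6 CPM in CCI and 4.54 CPM in sham (log2 fold change 3.08, SE 0.34; edgeR adjusted p = 5.27e-05). Cardiac muscle genes were lower in CCI with no overlap of their summed level, which was 5.90, 19.1, 6.38 and 6.86 CPM in CCI 1 to 4, against 62.9, 51.6, 59.9 and 71.9 CPM in sham 1 to 4. Of 3 tested, 2 fell, Myh6 (log2 fold change -4.48, SE 0.19) and Tnni3 (-3.104, SE 0.72), and the median was that of Tnni3. Myh7, the myosin of slow skeletal and heart muscle and the muscle gene that fell, averaged 1.37 CPM in CCI and 29.0 CPM in sham (-4.40, SE 0.32). Which cells of the nerve hold the transcripts of the cardiac list is not known from whole-nerve RNA. The part of fat or muscle RNA in the lower Cox7a1 was not tested.

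**Figure D3:**
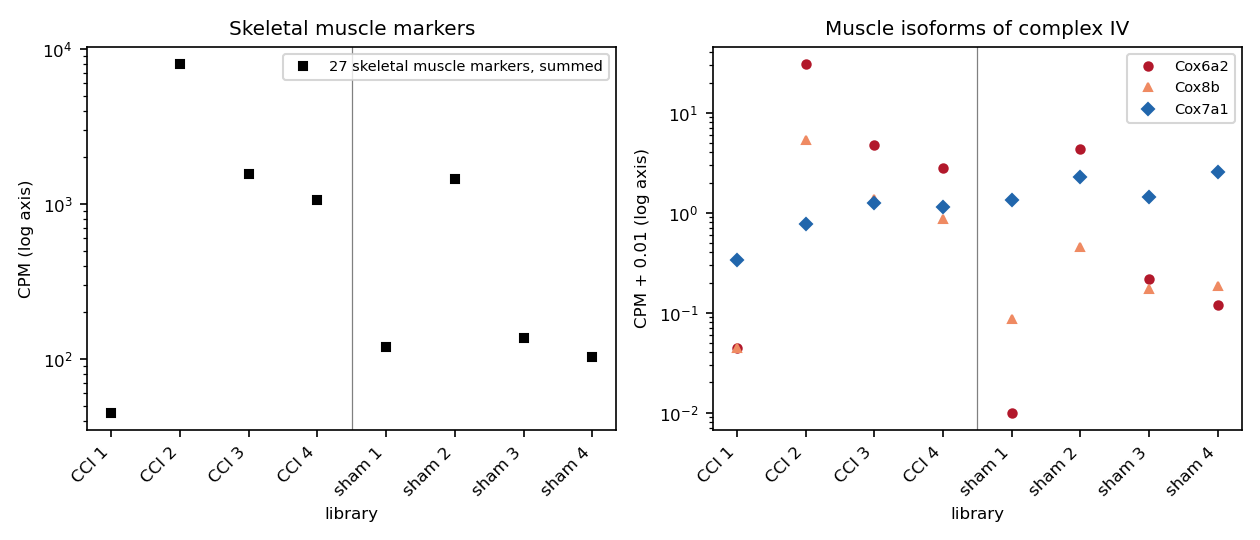
Summed CPM of 27 skeletal muscle genes (left, log axis) and CPM plus 0.01 of the muscle isoforms Cox6a2, Cox8b and Cox7a1 (right, log axis) in each library. Cox6a2 and Cox8b are high in CCI 2, 3 and 4 and sham 2, the libraries where the muscle sum is over 1000 CPM, while Cox7a1 lies between 0.328 and 1.24 CPM in CCI and between 1.34 and 2.54 CPM in sham.

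**Figure D4:**
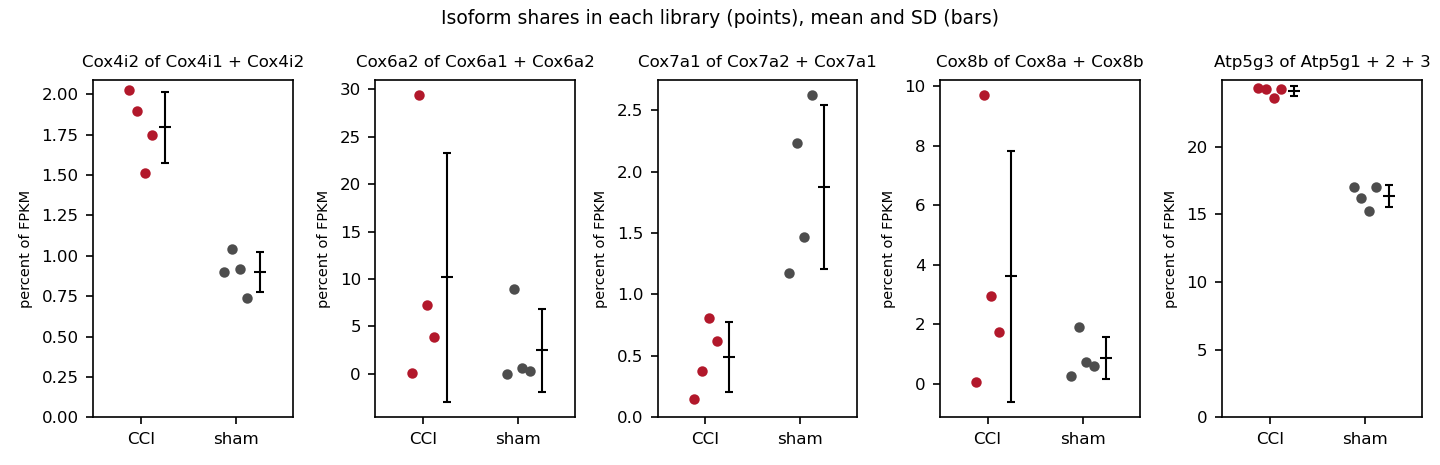
Share of the FPKM of an isoform pair held by Cox4i2, Cox6a2, Cox7a1 and Cox8b, and share of subunit c FPKM held by Atp5g3, per library (points) with mean and SD (bars), CCI left of sham. Groups are separate for Cox4i2, Cox7a1 and Atp5g3, and overlap for Cox6a2 and Cox8b.

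Members that could not be tested had few or no counts. Cox7a2l2 had 82 counts over all libraries, Cox7b2 had 1 and Cox8c, a testis isoform, had 0.

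The members are short genes, and length went with fold change in these data. Their median length was 707 bp, against 3020 bp for all genes tested, and 39 of the 45 lay in the shortest 25% of genes. Of these shortest genes, 3942 in number, 44.2% rose and 21.7% fell, with a median log2 fold change of 0.27, whereas in the longest 25% of genes 28.4% rose and 43.3% fell (median -0.15). The members' 75.6% higher therefore stands beside 44.2% of the shortest 25% of genes. Among the 45 members Spearman's rho between length and log2 fold change was -0.51, and over all 15763 genes it was -0.16, given as descriptions across genes of the same libraries. The part of gene length in the result was not tested.

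**Figure D5:**
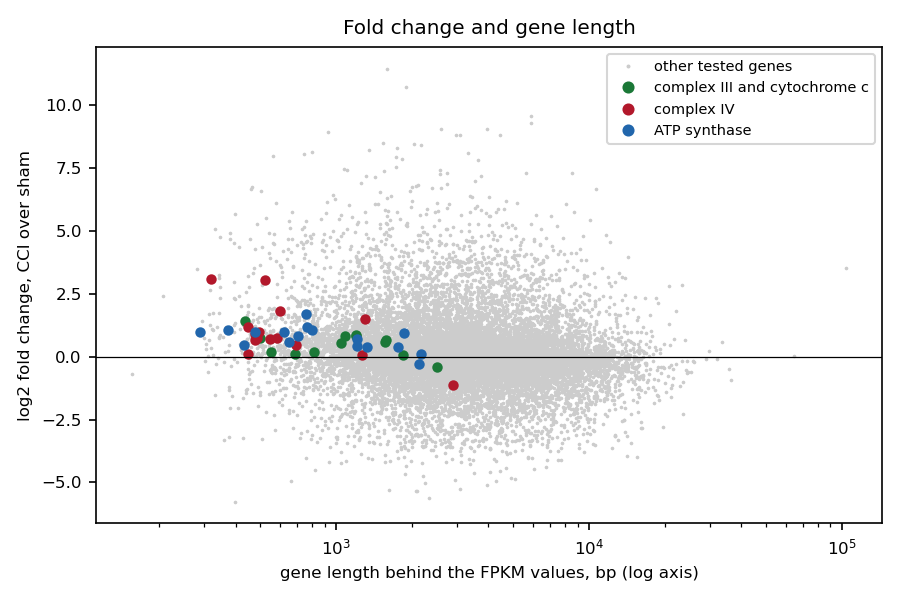
Log2 fold change (y axis, CCI over sham) against the gene length behind the FPKM values (x axis, bp, log scale) for all tested genes (grey) and the members (coloured by complex). The members sit at the short end, with 39 of 45 at or under 1824 bp, and mostly above 0.

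Genes of the same pathway outside these complexes moved in both directions. Of 33 tested complex I subunit genes, 19 rose and 4 fell (57.6% and 12.1%, against 36.2% and 32.2% of all genes tested). Their median log2 fold change was 0.39. The largest rises were in Ndufb6 (1.37, SE 0.11) and Ndufa3 (1.25, SE 0.11), and the largest falls in Ndufs4 (-0.85, SE 0.07) and Ndufs7 (-0.64, SE 0.07). Of the 4 subunits of complex II, which feeds electrons from succinate, Sdhd (0.74, SE 0.08) and Sdhb (0.35, SE 0.07) rose and Sdha, the catalytic flavoprotein, fell (-0.34, SE 0.06), while Sdhc had 0.04 and did not pass. Of 33 tested assembly and accessory factors that the name rule leaves out, 13 rose and 3 fell (39.4% and 9.09%, median 0.17). The 39.4% higher lay near the 36.2% of all genes tested. Ndufa4l2, a complex IV-associated gene known in human cells as induced by HIF-1, had the largest rise: it averaged 12.2 CPM in CCI and 3.94 CPM in sham (1.63, SE 0.14; edgeR adjusted p = 2.23e-06). Cmc2, a complex IV biogenesis factor, followed (1.08, SE 0.20), and Tmem70, an ATP synthase assembly factor (-0.42, SE 0.11), and Pet100, of complex IV assembly (-0.40, SE 0.09), fell. With library totals alone, 27 complex I genes were higher and 3 lower, and 23 of the assembly and accessory factors were higher. Among all genes tested, 47.2% were then higher and 23.4% lower. Sdha (-0.11; edgeR adjusted p = 0.119), Tmem70 (-0.20; 0.124) and Pet100 (-0.18; 0.0846) did not pass under that scaling.

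Of 15 regulators of mitochondrial biogenesis, 5 were higher and 5 lower (33.3% each, median log2 fold change 0.08). Those shares lay near the 36.2% higher and 32.2% lower among all genes tested. Ppargc1a, the coactivator PGC-1α that drives respiratory genes in many tissues, averaged 8.16 CPM in CCI and 18.9 CPM in sham and fell (log2 fold change -1.21, SE 0.10; edgeR adjusted p = 1.64e-06). Tfb1m, a mitochondrial ribosomal RNA methyltransferase, fell most of the list (log2 fold change -1.68, SE 0.10). Esrra, a nuclear receptor that works with PGC-1 coactivators, rose by 0.94 (SE 0.13), and Pprc1, a related coactivator, by 0.64 (SE 0.10). Nrf1 averaged 37.0 CPM in CCI and 44.1 CPM in sham and fell (-0.25, SE 0.06; edgeR adjusted p = 0.00352), and Gabpa averaged 59.5 CPM in CCI and 48.5 CPM in sham and rose by 0.30 (SE 0.06; edgeR adjusted p = 0.00196). With library totals alone Nrf1 did not pass (-0.03, edgeR adjusted p = 0.726), and Gabpa (0.52) and Ppargc1a (-0.99) kept their calls. Under that scaling 9 of the 15 regulators were higher and 3 lower, beside 47.2% higher and 23.4% lower of all genes tested. Nrf1 and Gabpa were named for the promoter motifs that follow.

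Promoters of the members, whether called, not called or not tested, were read for letters bound by known regulators of respiratory genes. RefSeq promoters (build GRCr8, 250 bases before to 50 after each start) were found for 40 of the 48 members, but not for Cox4i2. The NRF1 motif, GCGCA then any base then GCGC on either strand, stood in 17.5% of the 40, against 4.71% of all 27457 promoters in the table. The ETS core CCGGAAG, which GABPA and other ETS factors bind, stood in 30.0% of member promoters and 9.22% of all, and the YY1 motif GCCATNTT in 32.5% of member promoters and 7.36% of all. ACGTG, 1 form of the core of hypoxia response elements and part of some E-boxes, stood in 35% of member promoters and 19.7% of all. Other forms of that core were not searched. Each of these motifs was searched on both strands. The promoters in the table include those of genes not tested in these libraries, and shares among tested genes alone were not computed. Either the NRF1 or the ETS letters stood in 13.0% of all promoters. Among members, either stood in 16 of 29 promoters of those that rose and in 2 of 8 of those that fell or did not pass. NRF1 letters stood in 7 of the 29 and 0 of the 8, ETS in 10 and 2, YY1 in 11 and 1, and ACGTG in 10 of the 29 and 4 of the 8. A match describes letters in this window only, and these splits, with 8 promoters on 1 side, were not tested.

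Printed here are, for each complex, the subunit with the largest rise whose promoter holds NRF1 or ETS letters (capitals), then Cox5a, the complex IV subunit with the largest rise apart from muscle isoforms, and the muscle isoforms Cox6a2 and Cox7a1. In Uqcrc1 (chr8:118467973-118468272, plus strand) and Atp5g3 (RefSeq Atp5mc3, chr3:79220615-79220914, minus strand) the capitals mark NRF1 letters, and in Cox8a (chr1:213833574-213833873, minus strand) they mark ETS letters at 2 places. Cox5a (chr8:66818034-66818333, plus strand), Cox6a2 (chr1:192219667-192219966, minus strand) and Cox7a1 (chr1:94568966-94569265, plus strand) hold neither. All are written 5′ to 3′ in the direction of transcription.
Uqcrc1: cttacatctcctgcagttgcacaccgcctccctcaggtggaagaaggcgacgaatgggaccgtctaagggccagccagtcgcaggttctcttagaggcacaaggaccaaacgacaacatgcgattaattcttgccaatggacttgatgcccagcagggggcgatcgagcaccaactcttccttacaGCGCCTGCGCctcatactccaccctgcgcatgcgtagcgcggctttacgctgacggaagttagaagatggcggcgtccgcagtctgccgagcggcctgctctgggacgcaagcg
Cox8a: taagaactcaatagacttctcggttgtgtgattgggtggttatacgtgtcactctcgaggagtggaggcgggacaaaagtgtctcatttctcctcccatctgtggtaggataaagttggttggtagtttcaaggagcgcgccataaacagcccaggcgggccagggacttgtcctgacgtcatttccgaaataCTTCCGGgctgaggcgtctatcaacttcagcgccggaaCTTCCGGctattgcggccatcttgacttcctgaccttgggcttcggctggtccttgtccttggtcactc
Atp5g3: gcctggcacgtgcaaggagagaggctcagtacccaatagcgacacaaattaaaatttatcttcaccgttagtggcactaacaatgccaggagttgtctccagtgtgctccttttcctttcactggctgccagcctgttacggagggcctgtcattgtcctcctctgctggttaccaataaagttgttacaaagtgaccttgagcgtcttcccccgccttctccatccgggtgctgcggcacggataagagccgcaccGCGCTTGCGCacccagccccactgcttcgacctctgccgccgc
Cox5a: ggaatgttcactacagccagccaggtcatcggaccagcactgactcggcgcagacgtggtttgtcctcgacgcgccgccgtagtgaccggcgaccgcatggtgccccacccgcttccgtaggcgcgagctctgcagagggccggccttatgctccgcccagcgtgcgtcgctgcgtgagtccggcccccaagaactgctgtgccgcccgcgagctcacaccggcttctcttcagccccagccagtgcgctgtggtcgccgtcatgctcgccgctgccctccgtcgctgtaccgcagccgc
Cox6a2: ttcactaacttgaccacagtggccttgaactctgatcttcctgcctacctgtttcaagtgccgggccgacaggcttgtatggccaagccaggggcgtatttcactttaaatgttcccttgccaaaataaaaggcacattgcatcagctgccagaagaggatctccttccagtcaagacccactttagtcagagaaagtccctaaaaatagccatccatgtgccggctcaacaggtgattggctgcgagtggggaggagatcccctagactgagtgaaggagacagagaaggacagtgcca
Cox7a1: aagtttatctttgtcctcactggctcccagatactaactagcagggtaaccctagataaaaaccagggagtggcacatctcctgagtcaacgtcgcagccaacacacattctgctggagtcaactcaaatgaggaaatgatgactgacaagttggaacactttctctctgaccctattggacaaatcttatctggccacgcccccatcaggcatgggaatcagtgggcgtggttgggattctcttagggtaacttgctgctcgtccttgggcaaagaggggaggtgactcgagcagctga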

How the data were processed

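The authors deposited raw counts per gene and FPKM for the same 22601 gene names and 8 libraries. Per the submitters' processing notes, fastp, HISAT2, HTSeq, R 3.2.0 and DESeq2 were used (roles not stated) with build Rnor_6.0. Per the labels' protocols, polyA libraries were made with a SMARTER kit. Of annotation, strand setting and filters nothing is given in the sources used here, so overlapping and antisense genes are uncertain. The deposited FPKM equalled counts divided by gene length and by summed counts, with no correction for library makeup, and gene lengths were read from them.

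Counts were tested in edgeR 4.0.16 (R 4.3.3) by the robust quasi-likelihood F test with group as the only term, over 15763 genes that passed filterByExpr, with trimmed mean of M-values scaling (TMM). CPM values are TMM-scaled, and standard errors are approximate (fold change over the square root of F). The test was run on counts simulated from the sham libraries, with few genes changed and no shift in library makeup. That run does not bear on the choice of scaling. Isoform shares were compared by exact permutation (scipy 1.17.1). Alternatives used limma 3.58.1, DESeq2 1.42.0, other scalings and filters, a replicate block and left-out libraries. Intervals and floors (3 counts) cover counting error only. Of the 48 names, 31 were current RefSeq symbols and 17 older ones. The members and gene lists were chosen with earlier results of these data known. Members given in every library were those of the isoform pairs and, per complex, the 4 that rose most and 3 that fell most among called members without overlap; other members are given by fold or mean.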

Additional observations from a re-analysis of the deposited data

Results flagged for a closer look

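Of 98 groups of 4 libraries screened, 6 had 1 library far from the other 3, and chance gives about 1 in 20. Cox6a2 stood out in CCI 2 at 30.4 CPM and in sham 2 at 4.31 CPM, and its share of subunit 6a FPKM in sham 2 was 8.97%. Skeletal muscle markers were highest in the same libraries of each group, as given above. In sham 3, Uqcrfs1 (37.6 CPM), Cox6a1 (38.3 CPM) and Atp5g2 (54.7 CPM) lay below the other sham libraries, and the median of all members was lowest there among the sham libraries, at -0.13 on the log2 scale relative to the sham mean.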

How the results depend on the processing

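Members called higher numbered 31 to 40 over all alternatives, against 34, beside 28.8% to 47.3% of all genes tested. Of 45 tested members, 33 kept direction and call under every alternative that gave a value. Members called lower, 2 in the main test, numbered 0 with library totals only (edgeR; 0 also at an unadjusted p under 0.05; DESeq2's test with its own size factors gave 2, and 3 at an unadjusted p under 0.05), 1 with limma on log2(FPKM + 1), 1 with at least 5 CPM in 4 libraries, 1 without CCI 2 and sham 2, and 1 to 2 when each library was left out (1 without CCI 2, sham 2 or sham 4). The median log2 fold change was 0.97 with library totals only and 0.92 with log2(FPKM + 1), and 0.66 to 0.76 when each library was left out (lowest without CCI 1). Directions turned only near 0: Cox7a2l was at -0.0047 with at least 5 CPM in 4 libraries, and when each library was left out ranged from -0.013 (without CCI 1) to 0.081 (without sham 3), and Atp5sl from -0.0037 (without CCI 1) to 0.12 (without sham 2). When 1 library was left out, 32 to 34 members were called higher, beside 32.8% to 35% of all genes tested, and 10217 to 10540 genes were called in either direction, against 10788.

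With the replicate block, 35 members were higher and 2 lower (35.4% and 31.2% of all genes tested), with a median of 0.75. Cox6a2 was then called (log2 fold change 3.69; edgeR adjusted p = 9.66e-05). Same-numbered libraries deviated together only in part (r of -0.03 to 0.34), and CCI 1 correlated best with sham 4, so the number is not taken as a pairing. For the isoform shares the block allows no exact p under 0.125, leaving out 1 library none under 0.0571, and leaving out CCI 2 and sham 2 none under 0.1, so these say nothing on stability. The difference in the Cox6a2 share ranged from 1.30 (without CCI 2) to 11.1 percentage points, that of Cox8b from 0.706 (without CCI 2) to 3.92.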
